A study of Rattus norvegicus with 113 samples.

Results

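The hippocampus of sham-operated rats was compared with that of naive rats at 12 months, using 8 of the 113 samples of the series, 4 arrays in each group. The arrays were chosen by their labels alone, and the comparison is described across all genes on the array. All rats were adult male Sprague-Dawley rats. Sham rats were anesthetized with isoflurane and ventilated, received a scalp incision and a trephined hole in the skull over the dura, and were prepared in every respect as rats given a parasagittal fluid percussion injury (TBI), but without the fluid pulse. Naive rats were neither anesthetized nor handled. The hippocampus was microdissected, and RNA amplified from its poly(A) tails was hybridised to 1-colour Agilent arrays, 1 sample per array. The study's methods describe the 4 arrays of a group as independent biological replicates. The labels give the time point but no other age for the naive rats. In whole tissue, fewer cells of a type and less RNA per cell cannot be told apart.

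The hippocampus forms new memories of places and events through a chain of excitatory neurons that runs from the dentate gyrus through CA3 to CA1, and its dentate gyrus keeps neural progenitors in adult life. Sham surgery is the usual control for brain injury because it carries the anesthesia, the wound and the craniotomy. A craniotomy can by itself cause local glial and inflammatory responses, so naive animals are added as a baseline without any procedure. The comparison of sham with naive therefore asks which genes differ a year after the whole sham procedure, with its anesthesia and handling. The 2 groups also differ in slide, as given below.

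Values are log2 signals with the median probe of each array set to 0, so that a difference of 1 is a factor of 2 relative to that median. Of 45598 probes, 21109 (46.3%) carried a gene name, for 16581 genes. A probe was tested where its signal was well above background on all 4 arrays of at least 1 of the 2 groups, which left 25281 probes. The test was limma's moderated test on the 12 hippocampal arrays of 12 months (naive, sham and TBI), and a probe was called at a Benjamini-Hochberg adjusted p under 0.05.

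In total 786 probes (3.11% of those tested) were called, of which 619 (2.45%) were higher and 167 (0.661%) lower in sham. The share of tested probes at an unadjusted p under 0.05 was 21.6%, and in 14.1% of tested probes the 4 sham arrays did not overlap the 4 naive arrays. By the study's own type of threshold, a fold of at least 1.4 with an unadjusted p under 0.05, 1884 probes (7.45%) passed. Among named probes, 182 were higher and 116 lower. Most differences were small. Called probes at least 2-fold higher numbered 121, after leaving out those at background on all naive arrays, and 9 were at least 2-fold lower. The count depended on single arrays. Leaving out sham array 1, 2, 3 or 4 gave 429, 308, 489 and 306 called probes, and leaving out naive array 4 gave 478. Leaving out naive array 1 gave 994, of which 439 were lower.

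The groups also differed in how many probes were detected at all. Between 46.6% and 53.0% of probes were well above background on the naive arrays, and between 57.5% and 60.7% on the sham arrays. The difference of 8.78 percentage points had an exact permutation p of 0.0286 (two-sided, 70 splits), the smallest that 4 arrays against 4 allow. The 4 TBI arrays lay at 53.0% to 57.6%. The naive arrays were on 1 slide, together with the TBI arrays of 6 months, and the sham arrays were on another slide, together with the TBI arrays of 12 months. Slide and group therefore cannot be told apart in any sham against naive value below.

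**Figure D1:**
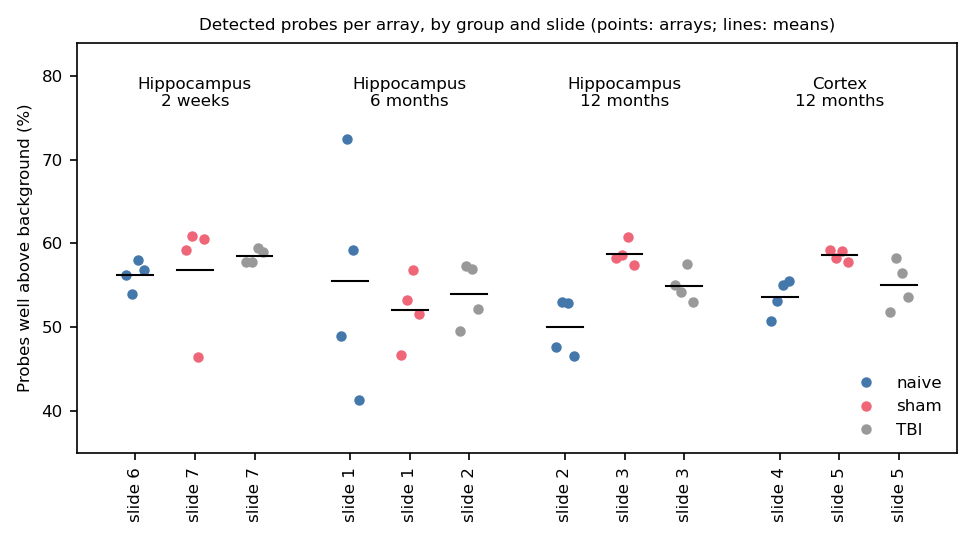
Share of probes well above background (percent, vertical axis) on each array, by group and slide; points are arrays and lines are group means. At 12 months in the hippocampus all 4 sham arrays lie above all 4 naive arrays, and at 6 months, where both groups share a slide, the naive arrays alone run from 41.2% to 72.5%.

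The rises lay mainly among dim probes. Of the 619 higher probes, 136 were at background on all naive arrays, another 136 were above background on 1 to 3 of them, and 347 were above background on all 8 arrays. The filter was uneven. Through the sham arrays alone it admitted 1142 probes above background on no naive array and 3620 on 1 to 3 naive arrays. Only 60 entered through the naive arrays alone. A probe admitted through sham alone is selected toward a rise, so its adjusted p is not independent support for one. Among the 20459 tested probes detected on all 8 arrays, 2.50% were called. When these were divided by signal into 4 equal parts, in the dimmest part 149 were higher and 26 lower, with a median difference of −0.01, and in the brightest part 27 were higher and 48 lower, with a median of −0.13. Rises were thus more numerous at low signal and falls at high signal. The part that the detected share plays in these counts was not tested.

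**Figure D2:**
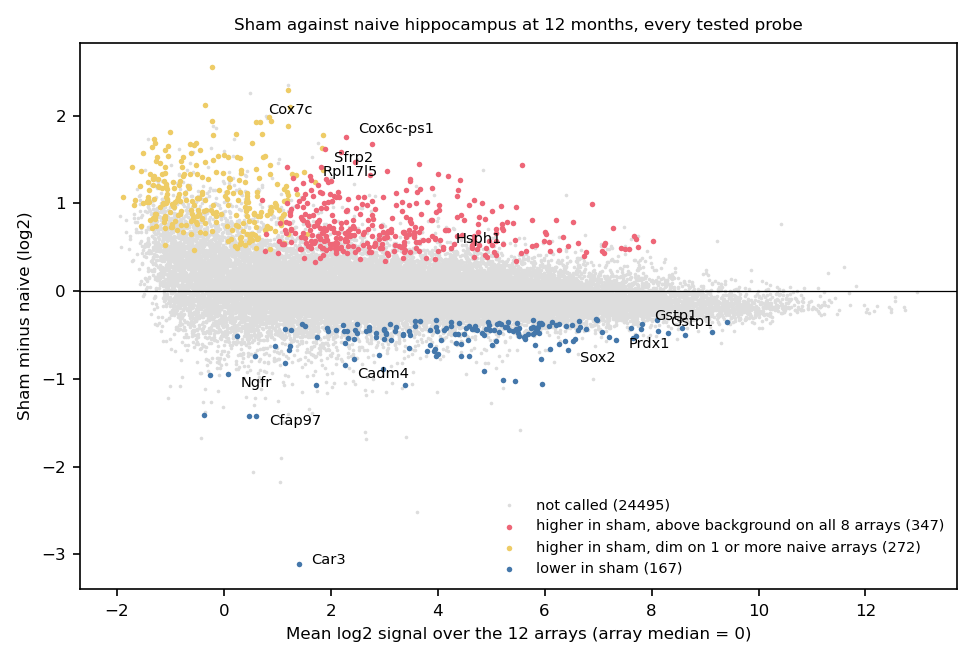
Sham minus naive difference (log2, vertical axis) against the mean log2 signal over the 12 arrays (horizontal axis), 1 point per tested probe. Called probes that are higher in sham gather at low signal, and Car3 is the named probe that fell most.

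The named rise with the smallest adjusted p was Cox7c, which encodes a small nuclear-encoded subunit of cytochrome c oxidase, the last enzyme of the mitochondrial respiratory chain. Its naive arrays read −0.74, −0.35, −0.27 and −0.63 and its sham arrays 1.41, 1.47, 1.48 and 1.35. The groups were far apart and the sham arrays nearly equal. The difference was 1.92 ± 0.15 (SE, adjusted p = 9.52e-05), with 2 of the 4 naive arrays above background. The probe thus entered the test through the sham arrays alone, so its call is not independent support for a rise. The gene had 1 probe, and it was dim. The mean level of the respiratory chain list ran from 8.23 to 8.62 on the naive arrays. Whether the probe reads the main transcript of Cox7c was not tested. A pseudogene of another subunit of the same enzyme, Cox6c-ps1, went the same way. Its naive arrays read 1.19, 1.34, 2.04 and 0.76 and its sham arrays 3.06, 2.93, 3.25 and 3.13, a difference of 1.76 ± 0.23 (SE, adjusted p = 0.00219). As a pseudogene it can share signal with the parent gene. Cox7c was the only called gene among 51 tested genes of the respiratory chain, whose median difference was −0.16, against −0.07 over all 11469 named genes, each read by its brightest probe. Of those 11469 genes 1.9% were called, and the 1 call among 51 was not tested against that share. The list level lay within the brightest of the 4 parts by signal, whose median was −0.13.

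Sfrp2 encodes a secreted protein that binds Wnt ligands. Its naive arrays lay between 0.93 and 1.36, and its sham arrays read 1.72, 2.86, 2.73 and 2.84. The lowest sham array was still above the highest naive array, and the difference was 1.42 ± 0.24 (SE, adjusted p = 0.00810). Rtn4rl1 encodes a receptor of the Nogo receptor family at the neuronal surface. It read 0.97, 1.35, 1.69 and 0.92 in naive and 2.55, 2.64, 2.41 and 2.42 in sham, a difference of 1.27 ± 0.17 (SE, adjusted p = 0.00219). Capns2, a small subunit of the calpain proteases, rose by 1.29 ± 0.24 (SE, adjusted p = 0.0164), with naive arrays from 0.06 to 0.68 and sham arrays from 1.33 to 2.23. The probes of Sfrp2, Rtn4rl1 and Capns2 were well above background on all 8 arrays.

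Rchy1, a ubiquitin ligase that acts on p53, read 0.14, 0.98, 0.91 and 0.92 in naive and 1.87, 2.25, 2.02 and 2.27 in sham, a difference of 1.36 ± 0.22 (SE, adjusted p = 0.00662). Rpl17l5, a ribosomal protein gene copy, read 0.53, 0.83, 1.21 and 0.60 in naive and 1.98, 2.16, 2.03 and 2.26 in sham, a difference of 1.31 ± 0.14 (SE, adjusted p = 0.000526). Such a copy can share signal with other copies. None of 69 tested genes of the cytosolic ribosome was called, with a median of −0.19, while over all named genes 1.9% were called. Efnb1, a transmembrane ligand of Eph receptors used in axon guidance, read −1.51, 0.42, −0.43 and −0.46 in naive, with 1 array above background, and 0.74, 0.90, 1.06 and 2.05 in sham (1.68 ± 0.36 SE, adjusted p = 0.0292). It was no longer called when any of 5 single arrays was left out. Txnip, which binds and inhibits thioredoxin, rose by 1.36 ± 0.29 (SE, adjusted p = 0.0307) with 1 naive array above background. It lost its call when any of 6 single arrays was left out. The Rchy1 probe was above background on 3 of the 4 naive arrays. The probes of Rchy1, Efnb1 and Txnip entered the test through the sham arrays alone, so their calls are not independent support for a rise.

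Several of the largest named rises came from probes at background on all naive arrays, so only a bound can be given, set by the lowest signal counted as above background. These probes entered the test through the sham arrays alone, so their calls are not independent support for a rise. Sfswap, a splicing regulator, had naive arrays from −1.20 to −0.58 and sham arrays from 0.26 to 0.87. It was at least 1.97-fold higher in sham. Ift20, a carrier protein of cilia, was at least 1.43-fold higher, and Rps19l3, a ribosomal protein gene copy, at least 1.16-fold higher. For Brap, Tob1, Ttc8 and Or6al2 the bound fell under 1, and no fold is given. Over all 136 such probes the bound exceeded 1 for 52, reached 1.4 for 17 and reached 2 for 2.

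Other probes of the same genes often did not move with the called ones. Brap had a brighter probe with a difference of −0.18, and Ttc8 a brighter probe with a difference of −0.06. Mterf1, a mitochondrial transcription termination factor, was called on 1 of 4 probes (1.53 ± 0.25 SE, adjusted p = 0.00631), while the other 3 gave −0.10, −0.21 and 0.31. For RT1-T24-4, a class 1 histocompatibility gene, the probe that was called gave 1.53 ± 0.28 (SE, adjusted p = 0.0144), a second gave 1.19 with an adjusted p of 0.0735, and the brightest gave 0.24. Class 1 genes share sequence with each other. The called probes of Mterf1 and RT1-T24-4 were above background on 1 and 2 naive arrays. Both entered the test through the sham arrays alone, so their calls are not independent support for a rise. For the 76 higher probes with another tested probe of the same gene, 61 of 105 other probes were also higher, 8 of them called, and their median was 0.04. For the 34 lower probes, 36 of 47 other probes were also lower, 4 of them called, and their median was −0.22. Of all tested probes 2.45% were called higher and 0.661% lower, with a median of −0.03. The share of all tested probes on either side of 0 is not given. Tsfm was called in both directions by different probes, at 1.34 and −0.52.

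The fall of greatest size was in Car3, a carbonic anhydrase of muscle and fat. Its naive arrays read 1.38, 4.29, 3.99 and 3.84 and its sham arrays 0.42, −0.17, 0.18 and 0.60. Naive array 1 stood well below the other naive arrays, and the sham arrays were all lower still. The difference was −3.11 ± 0.58 (SE, adjusted p = 0.0159), an 8.66-fold lower signal. Without sham array 2 its adjusted p was 0.0608. A second, brighter probe gave −2.52 with an adjusted p of 0.0615. The level of Car3 also spread widely elsewhere in the series, with naive arrays of 2 weeks from −0.40 to 4.43 and sham arrays of 6 months from −0.72 to 3.27.

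Among the other falls, Cfap97, whose product is associated with cilia, read 1.55, 1.15, 1.08 and 1.83 in naive and 0.47, −0.13, −0.40 and −0.04 in sham (−1.43 ± 0.22 SE, adjusted p = 0.00542). Pi16, a secreted peptidase inhibitor, read 4.27, 4.32, 4.73 and 4.55 in naive and 3.89, 3.83, 3.83 and 3.46 in sham (−0.71 ± 0.13 SE, adjusted p = 0.0109). Both were called under all 19 other settings run. The cell adhesion gene Cadm4 fell by 0.85 ± 0.18 (SE, adjusted p = 0.0280), with naive arrays from 2.46 to 2.98 and sham arrays from 1.51 to 2.25. The non-coding RNAs H19, an imprinted transcript, and Terc, the template RNA of telomerase, fell by 0.96 ± 0.21 and 0.74 ± 0.15 (adjusted p = 0.0338 and 0.0206). Of the 8 arrays, leaving out any of 5 for Cadm4, 6 for H19 and 4 for Terc ended the call.

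Ngfr, the low-affinity receptor of the neurotrophins, read 0.69, 0.84, 0.57 and −0.22 in naive and −0.32, −0.62, −0.69 and −0.28 in sham. The lowest naive array lay just above the highest sham array, and the difference was −0.95 ± 0.22 (SE, adjusted p = 0.0402). Gfra2, the receptor of the growth factor neurturin, fell by 0.74 ± 0.18 (SE, adjusted p = 0.0482), and its second probe gave −0.73 with an adjusted p of 0.145. The adiponectin receptor Adipor2 read 3.94, 4.29, 3.92 and 4.48 in naive and 3.68, 3.43, 3.50 and 3.30 in sham (−0.68 ± 0.15 SE, adjusted p = 0.0321). Gpr31, a G protein-coupled receptor, fell by 1.41 ± 0.33 (SE, adjusted p = 0.0400), with its lowest naive array at −0.63 and its highest sham array at −0.73. All 4 stood close to the threshold, and lost their calls when any of 7 (Ngfr), 6 (Gfra2 and Gpr31) or 5 (Adipor2) single arrays was left out.

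**Figure D3:**
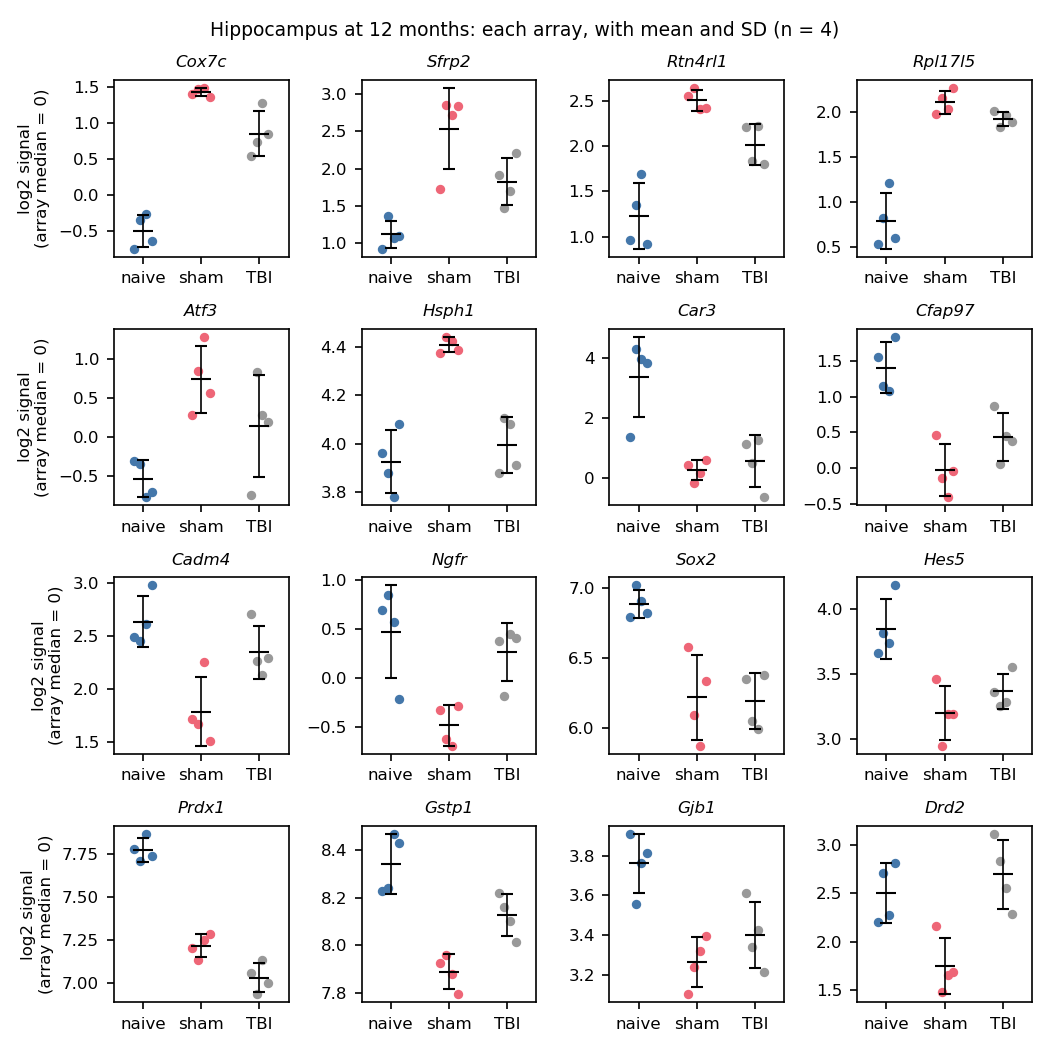
Log2 signal (array median at 0, vertical axis) of 16 genes on each of the 12 hippocampal arrays of 12 months, as points, with the mean and SD of 4 arrays. Hsph1 and Drd2 show TBI arrays at the naive level, while Prdx1 and Sox2 show TBI arrays at or beyond the sham level. For Rpl17l5 the TBI arrays lie nearer the sham level than the naive level.

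Over 41 lists of pathways and cell types, 15 list genes were called. Of all named genes 1.9% were called, 1.05% higher and 0.854% lower, and 20.5% had an unadjusted p under 0.05 on either side. Lists share genes, and the number of distinct list genes tested is not given. The 15 calls are therefore not set against these shares. Of 23 tested genes of the oxidative stress response, 2 fell and 8 had an unadjusted p under 0.05 on the low side, with a list median of −0.16. The list level ran from 6.6 to 6.8 on the naive arrays, within the brightest of the 4 parts by signal, whose median was −0.13. The share of all named genes on the low side alone is not given, and the list was not tested against probes of like signal. Prdx1 reduces peroxides and Gstp1 conjugates glutathione to electrophiles. Prdx1 read 7.78, 7.71, 7.86 and 7.73 in naive and 7.20, 7.13, 7.25 and 7.28 in sham, a difference of −0.55 ± 0.08 (SE, adjusted p = 0.00323). Gstp1 read 8.23, 8.24, 8.47 and 8.43 in naive and 7.93, 7.96, 7.88 and 7.79 in sham, a difference of −0.45 ± 0.09 (SE, adjusted p = 0.0201), and its second probe also fell (−0.38, adjusted p = 0.0454). Prdx1 kept its call without any single array, and Gstp1 lost it without sham array 3, sham array 4 or naive array 4. Both are bright probes with little spread, and both genes are known targets of the factor Nrf2, which binds antioxidant response elements. Their promoters, taken as 300 bases around the gene start (RefSeq, build GRCr8), each hold 1 match to TGACNNNGC on either strand, in capitals, as do 12.1% of 33469 promoters of that length. In Prdx1 (chr5:135383656-135383955, plus strand) the match is on the opposite strand, and in Gstp1 (chr1:210769656-210769955, minus strand) it is on the strand of the gene. Both genes were chosen for display after their values were seen, and a match is not evidence of binding.
Prdx1: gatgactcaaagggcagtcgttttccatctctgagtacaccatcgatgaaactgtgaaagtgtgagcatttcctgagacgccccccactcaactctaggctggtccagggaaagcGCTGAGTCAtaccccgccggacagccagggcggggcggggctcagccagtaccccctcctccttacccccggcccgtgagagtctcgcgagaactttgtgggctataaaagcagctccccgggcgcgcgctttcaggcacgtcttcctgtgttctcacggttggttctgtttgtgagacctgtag
Gstp1: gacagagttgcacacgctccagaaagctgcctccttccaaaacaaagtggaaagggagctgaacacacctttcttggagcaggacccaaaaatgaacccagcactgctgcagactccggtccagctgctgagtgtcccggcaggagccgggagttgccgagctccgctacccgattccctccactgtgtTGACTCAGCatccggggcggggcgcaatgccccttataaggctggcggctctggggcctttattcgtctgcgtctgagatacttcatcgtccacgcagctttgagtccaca

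Of 17 tested genes of progenitors and immature neurons, 2 fell. An unadjusted p under 0.05 was found for 6 on the low side and none on the high side. The median was −0.24 against −0.07 over all genes. Of all named genes 0.854% were called lower, and 20.5% had an unadjusted p under 0.05 on either side. The naive levels of the list lay within the third part by signal (4.06 to 5.77), whose median was −0.06. The list was not tested against probes of like signal. The mean level of the list ran from 4.25 to 4.50 on the naive arrays, from 3.87 to 4.09 on the sham arrays and from 4.08 to 4.28 on the TBI arrays. Sox2, a transcription factor of neural stem cells and astrocytes, read 6.79, 7.02, 6.91 and 6.82 in naive and 6.58, 6.09, 5.87 and 6.33 in sham (−0.67 ± 0.15 SE, adjusted p = 0.0358). Hes5, a repressor induced by Notch signaling in progenitors, read 3.66, 3.81, 3.74 and 4.18 in naive and 3.46, 2.95, 3.19 and 3.19 in sham (−0.65 ± 0.14 SE, adjusted p = 0.0272). Sox2 and Hes5 lost their calls when any of 6 and any of 5 single arrays was left out. Tbr1, a factor of young excitatory neurons, had the lowest value of the list at −1.03 and an adjusted p of 0.0818. The Hes5 promoter (chr5:170804327-170804626, plus strand, RefSeq, build GRCr8) holds 2 matches to GTGGGAA, the letters bound by the Notch effector RBPJ, in capitals, 1 on each strand. Of all promoters of that length, 6.29% hold at least 1. The promoter of Sox2 held no match to these letters. The Hes5 promoter was also chosen for display after the values were seen.
Hes5: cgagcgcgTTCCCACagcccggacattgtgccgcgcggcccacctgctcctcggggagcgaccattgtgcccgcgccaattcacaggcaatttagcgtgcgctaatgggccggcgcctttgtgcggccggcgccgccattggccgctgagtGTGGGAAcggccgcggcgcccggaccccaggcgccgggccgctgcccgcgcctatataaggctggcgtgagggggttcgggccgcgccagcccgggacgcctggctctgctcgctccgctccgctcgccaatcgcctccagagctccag

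Of 24 oligodendrocyte and myelin genes, 1 was called, and the median was −0.23. An unadjusted p under 0.05 was found for 11 on the low side and none on the high side. Of all named genes 0.854% were called lower, and 20.5% had an unadjusted p under 0.05 on either side. The called gene was Gjb1, a gap junction protein of oligodendrocytes. It read 3.91, 3.56, 3.76 and 3.81 in naive and 3.10, 3.24, 3.32 and 3.40 in sham (−0.50 ± 0.11 SE, adjusted p = 0.0358). The defining and far brighter myelin gene Mbp gave −0.16 (adjusted p = 0.346). Mag, a myelin adhesion protein, had the lowest value at −0.52 with an adjusted p of 0.0698. The list level ran from 6.69 to 6.88 on the naive arrays and from 6.40 to 6.72 on the sham arrays, so the groups overlapped. These levels lay within the brightest of the 4 equal parts of detected probes (mean signal 5.77 to 13.0). That part had a median of −0.13, with 27 probes called higher and 48 lower. Whether the myelin list fell beyond probes of like signal was not tested. Gjb1 lost its call when any of 7 single arrays was left out.

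Lists of stress, clock and splicing genes held 1 or 2 calls each. The share called over all named genes was 1.9%, and the counts of single lists were not tested against it. Hsph1, a chaperone of the heat shock family, read 3.96, 3.88, 3.78 and 4.08 in naive and 4.38, 4.44, 4.43 and 4.39 in sham (0.48 ± 0.09 SE, adjusted p = 0.0152), and was the only gene called among 22 of its list, whose median was 0.03. Atf3, a transcription factor induced by stress and injury, read −0.31, −0.35, −0.77 and −0.71 in naive and 0.28, 0.84, 1.29 and 0.56 in sham (1.28 ± 0.30 SE, adjusted p = 0.0409), with 2 naive arrays above background. The Atf3 probe entered the test through the sham arrays alone, so its call is not independent support for a rise. In the clock list, Ciart, a repressor of the circadian clock, fell by 0.43 ± 0.10 (SE, adjusted p = 0.0357). Rorb, an activator, was at least 1.17-fold higher on a probe at background in naive, which entered the test through the sham arrays alone. Srsf6, a splicing factor, rose by 0.45 ± 0.09 (SE, adjusted p = 0.0242), and Sema5a, an axon guidance protein, by 0.58 ± 0.14 (SE, adjusted p = 0.0423). The pericyte gene Rgs5 fell by 0.59 ± 0.13 (SE, adjusted p = 0.0365), and was the only call among 24 genes of endothelium and pericytes. Hsph1 lost its call when either of 2 single arrays was left out, and each of the other genes named here when any of 6 or 7 was left out.

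No gene was called in the lists of microglia and macrophages (22 tested, median −0.02), complement (20, −0.07), interferon response (22, 0.06), cytokine and NF-kB signaling (16, −0.05), reactive astrocytes (18, −0.01), lymphocytes and neutrophils (7, 0.05) or immediate early genes (25, 0.07). Over all named genes 1.9% were called, and single lists of 7 to 25 genes without a call do not stand apart from that share. The microglial genes Ctss and Fcer1g differed by 0.15 and −0.01, with adjusted p of 0.606 and 0.975, and the Ctss value left out sham array 4, whose spots were flagged. For the astrocyte filament gene Gfap the difference was −0.02 (adjusted p = 0.988). Itgam, an integrin of microglia, had the highest value among the microglial genes at 1.20, with an adjusted p of 0.0707. The mean level of the microglial list ran from 4.04 to 4.41 on the naive arrays and from 4.13 to 4.37 on the sham arrays, the second range inside the first.

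**Figure D4:**
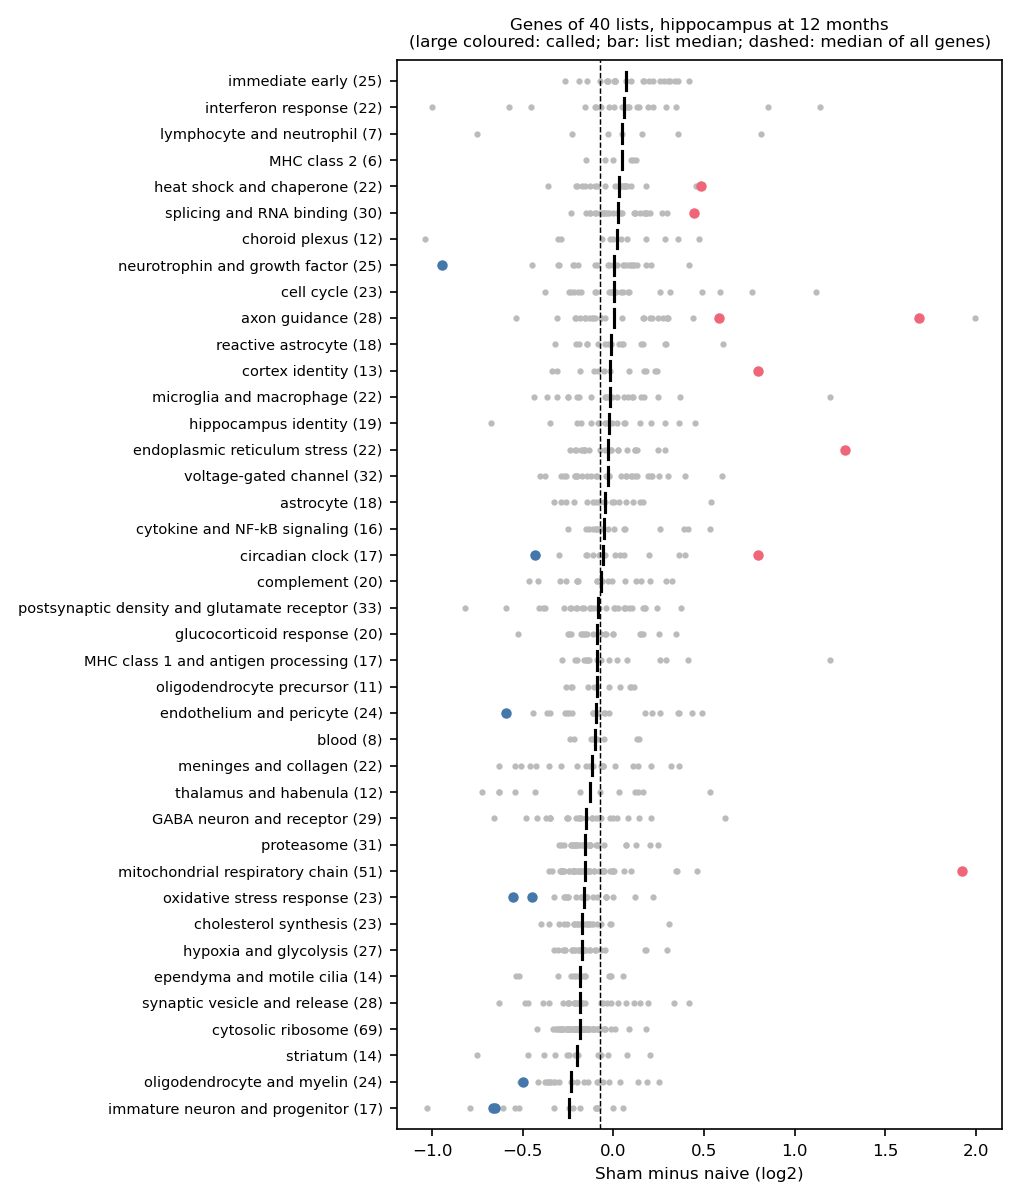
Sham minus naive difference (log2, horizontal axis) of each tested gene of 40 lists (rows, with the number tested), with list medians as bars and the median of all named genes, −0.07, as a dashed line. The called genes, large and coloured, number at most 2 per list, and the lowest list medians are those of progenitor genes (−0.24) and myelin genes (−0.23).

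The tissue label was checked against 19 genes of hippocampal identity, of which 11 were higher on all 8 naive and sham hippocampal arrays of 12 months than on all 8 naive and sham cortical arrays of that age, and 2 were lower on all 8. Of 13 genes of cortical identity, 1 was higher and 3 were lower. Tissue from the lateral ventricle varied within both groups. The choroid plexus transport protein gene Ttr read 6.23, 7.04, 12.85 and 7.74 in naive and 5.51, 8.57, 12.46 and 7.50 in sham, so that array 3 of each group was high and the groups overlapped (0.04 ± 1.67 SE, adjusted p = 0.992). None of the 12 tested choroid plexus genes, 14 ependymal genes, 22 meningeal genes or 8 blood genes was called. Over all named genes 1.9% were called.

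Of 8 genes that the study singles out for 1 year or for chronic intervals after injury, Ngfr alone was called. Since the study chose them on samples of this series, their count is not independent evidence. Over all named genes 1.9% were called. Drd2, a dopamine receptor, read 2.20, 2.71, 2.28 and 2.82 in naive and 2.16, 1.48, 1.66 and 1.69 in sham, a difference of −0.75 ± 0.21 (SE) with an adjusted p of 0.0733, and the 4 TBI arrays read 2.29 to 3.11. Drd1, the other main dopamine receptor, differed by −0.38 (adjusted p = 0.293). The cytokine gene Il18 differed by 0.53 ± 0.16 (SE, adjusted p = 0.0900) and Stat3, a transducer of cytokine signals, by 0.28 ± 0.10 (SE, adjusted p = 0.140), both without overlap between groups. Creb5, Hspb1 and S100b differed by −0.20, −0.21 and −0.19, with adjusted p of 0.503, 0.660 and 0.307. A second probe of S100b went the other way (0.13, adjusted p = 0.523). A second probe of Creb5 gave −0.66 (adjusted p = 0.174).

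The TBI arrays shared the slide of the sham arrays, and TBI minus naive shares the naive arrays with the comparison described here, so levels are given side by side only. Rpl17l5 stood at 0.79 in naive, 2.11 in sham and 1.92 in TBI, and Prdx1 at 7.77, 7.22 and 7.03. In contrast, Hsph1 stood at 3.92, 4.41 and 3.99, Gfra2 at 4.22, 3.49 and 4.20, and Pycr1, an enzyme of proline synthesis, at 1.41, 0.74 and 1.51. For the first pair the TBI mean lay nearer the sham mean, and for the others nearer the naive mean.

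The same contrast was available in cortex at 12 months and in hippocampus at 6 months and 2 weeks, on other arrays. By the study's methods, both tissues of an interval came from the same rats. The cortex contrast at 12 months is thus not a separate set of animals. It called 1098 of 25219 probes in cortex (4.35%), 743 of 20989 at 6 months (3.54%) and 2132 of 23758 at 2 weeks (8.97%). In cortex and at 2 weeks naive and sham were again on different slides, and at 6 months they were on the same slide. Of the probes that were higher in the hippocampus at 12 months and measured in the other comparison, 553 of 570 (97.0%) were also higher in cortex, 474 of 491 (96.5%) at 2 weeks, and 89 of 361 (24.7%) at 6 months. The share of all probes that were higher there was 56.9%, 52.9% and 64.4%. Of the lower probes, 140 of 166 (84.3%) were also lower in cortex, 142 of 165 (86.1%) at 2 weeks and 22 of 164 (13.4%) at 6 months. Across probes, r with the differences of the hippocampus at 12 months was 0.53 for cortex, 0.58 for 2 weeks and −0.28 for 6 months, given as a description because probes on 1 array are not independent.

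The test of the difference between contrasts called no probe against cortex (0% of 26135, smallest adjusted p = 0.0716, 2105 at an unadjusted p under 0.05) and none against 2 weeks (0% of 25460, smallest adjusted p = 0.567, 1253 at an unadjusted p under 0.05). Against 6 months it called 1924 of 25317 probes (7.6%), of which 613 (31.9%) were higher and 1311 lower in the 12 month contrast. The higher share was 52.5% with scaling to the 75th percentile, 49.2% with quantile normalization, 53.8% with the authors' table and 55.7% with scaling to detected probes, and 61.2% without naive array 2 of 6 months. The 1924 probes included 57.6% of the 786 called probes. Those 786 were picked by the 12 month values, which enter both tests, so the overlap is not independent support. The count of 1924 became 4483 without naive array 1 of 6 months and 3877 without naive array 2. The detected share of that naive group ran from 41.2% to 72.5%. A p that misses the threshold does not show that contrasts were equal. The test against cortex treated all arrays as independent and did not pair the 2 tissues by rat.

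The level of Cox7c was set out over the 12 groups on 7 slides that these comparisons use. Its mean was −0.38 in naive of 2 weeks, −0.18 in naive of 6 months, −0.50 in naive of 12 months and −1.69 in naive cortex. Sham arrays on slides apart from their naive arrays had means of 1.16 at 2 weeks, 1.43 at 12 months and 0.34 in cortex, and sham arrays on the slide of their naive arrays, at 6 months, had −0.80. TBI arrays on the slides of those first 3 sham groups had means of 0.91, 0.85 and 0.57, and TBI arrays of 6 months, on the slide of the naive arrays of 12 months, had −0.14. Rpl17l5 gave the same picture, with means from 1.52 to 2.11 in the 6 groups on the slides of sham and TBI, and from 0.25 to 1.19 in the 6 other groups. Over these 12 groups the high and low means of these 2 genes were divided by slide. On the slide that held both naive and sham arrays the difference was −0.62 for Cox7c, whose probe was too dim there to be tested. It was −0.52 for Rpl17l5 (adjusted p = 0.180). Both genes are called rises of the comparison described here. Of other called rises, Rtn4rl1, Cox6c-ps1, Rchy1, Sfswap, Brap, Tob1, Ttc8 and Or6al2 were divided likewise. For Cox6c-ps1 the means ran from 2.41 to 3.09 on the slides of sham and TBI and from 0.89 to 2.19 in the other groups. Sfrp2, Efnb1, Ift20, Mterf1, Rps19l3, RT1-T24-4, Txnip, Atf3 and Capns2 were not divided completely. Capns2 had means of 2.07 in naive and 1.79 in sham of 6 months and 1.00 in sham of 2 weeks. The part of slide was not tested.

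Atf3 gave 1.28 at 12 months in hippocampus, 0.25 in cortex, 0.24 at 6 months and −1.04 at 2 weeks, and Capns2 gave 1.29, 0.66, −0.28 and −0.37. The difference from 6 months was called for Capns2 (adjusted p = 0.0230) and not for Atf3 (adjusted p = 0.321). All genes given here were picked by their 12 month values, which enter that test. Hes5 gave −0.65 at 12 months, −0.06 in cortex, 0.63 at 6 months and −1.10 at 2 weeks, and its difference from 6 months was called (adjusted p = 0.00999). For Cadm4 the difference from 6 months was also called (adjusted p = 7.5e-05). Its mean at 6 months was 0.76 in naive and 1.86 in sham, against 2.64 and 1.79 at 12 months, so that the naive groups lay further apart than the sham groups.

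**Figure D5:**
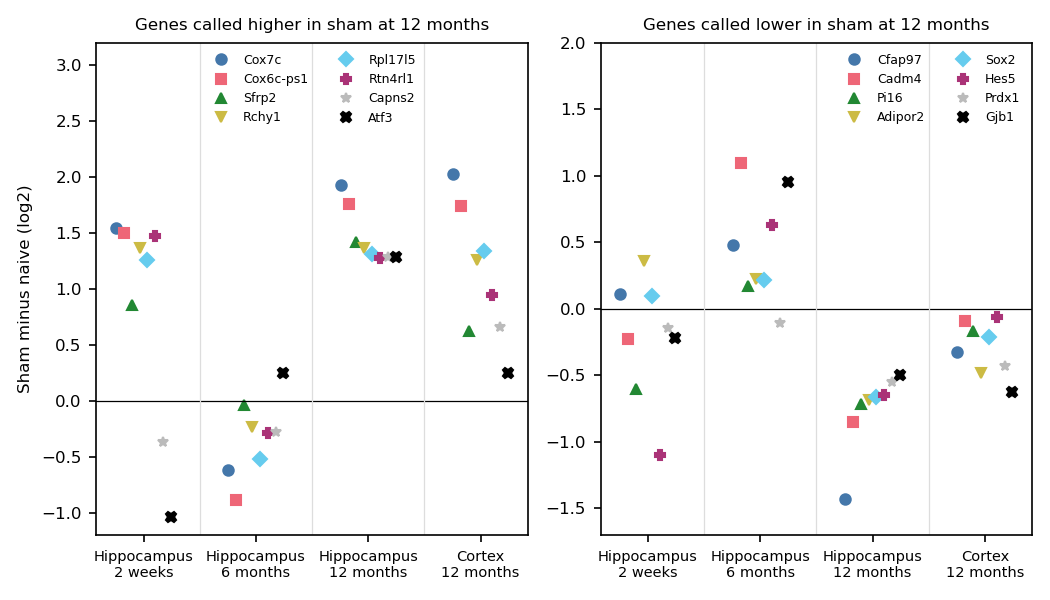
Sham minus naive difference (log2, vertical axis) of 8 genes called higher (left) and 8 called lower (right) at 12 months, in 4 comparisons. At 6 months all but Atf3 of the higher genes lie below 0 and all but Prdx1 of the lower genes lie above 0.

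Among the largest differences from 6 months, Rps19l3, Caprin1 and RT1-T24-4 were more positive at 12 months, and Prrt2 and Tbr1 more negative. Tbr1 read 0.85, 1.24, 0.84 and 1.38 in naive and 0.25, −0.42, 0.31 and 0.04 in sham at 12 months, without overlap, and its difference was not called there, while at 6 months it was 1.79 (adjusted p = 0.00031). List medians also differed between times, as for microglial genes (−0.02 at 12 months and −0.80 at 6 months) and progenitor genes (−0.24 and 0.34), and these lists were not tested against each other.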

How the data were processed

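The samples were 1-colour Agilent arrays of whole hippocampus and cortex. The deposited array files hold spot intensity values that the authors extracted with Agilent Feature Extraction 11.5.1.1, including a processed signal corrected for background and spatial trends, with surrogate values for spots not above background, and flags for spots well above background and outlier spots. No normalization between arrays had been applied. The value table of the series, deposited by the authors, holds intensity values from GeneSpring, scaled per the methods by each array's median and found here to differ from the processed signal by 1 factor per array, and served as an alternative. Of its columns, 48 belong to samples outside the arrays used here and were not read.

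From the files, log2 of the processed signal was taken, spots of 1 probe were averaged without outlier spots, and the median over non-control probes of each array was subtracted. A probe counted as above background on an array where at least 0.5 of its spots did. limma 3.58.1 (R 4.3.3) was fitted to the 12 hippocampal arrays of 12 months, which share 1 estimate of the spread, and sham minus naive was tested with Benjamini-Hochberg adjustment at 0.05 over all tested probes. A probe with a flagged array was fitted without it, as were 371 tested and 2 called probes. Differences from the same contrast in cortex at 12 months and in hippocampus at 6 months and 2 weeks were tested as interaction terms. Genes were read by their brightest probe in the lists. Precision is limited by 4 arrays per group. The scripts were tested on simulated data.

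Named genes were the 12 largest rises and 12 largest falls among called probes without overlap between groups, up to 4 called members of each list, the 8 genes that the study names for 1 year or chronic intervals, the 3 brightest genes of each marker list and the 3 largest differences of each sign in each interaction. The 12 largest rises among probes above background on at least 1 naive array were added after the values were seen. LOC and RGD names were counted but not described, and a few genes that the rule names are not reported here. The comparison and the lists were chosen with earlier results of these data known. Promoters came from RefSeq (GRCr8). Alternatives were other scalings, filters, models and backgrounds, and leaving out each array.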

Additional observations from a re-analysis of the deposited data

Results flagged for a closer look

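Among 182 groups of 4 arrays examined, 12 held an array whose gap to its nearest neighbour took up more of the group's range than Dixon's limit for 4 values, where 5% of groups would do so by chance. Among single genes, naive array 1 was low for Car3 (1.38 against 3.84 to 4.29, ratio of gap to range 0.844) and for Rchy1 (0.14 against 0.91 to 0.98, ratio 0.917). Sham array 4 was low for Pi16 (3.46 against 3.83 to 3.89, ratio 0.859), and sham array 1 was low for Sfrp2 (1.72 against 2.73 to 2.86, ratio 0.882).

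Among list means, sham array 1 was low for the class 1 histocompatibility list (4.68 against 5.05 to 5.10, ratio 0.871) and for lymphocytes and neutrophils (0.51 against 1.35 to 1.45, ratio 0.893), where the T cell gene Cd3e read −2.26 on that array and 2.84, 2.14 and 2.34 on the others. Sham array 1 was high for the striatum list (4.48 against 4.26 to 4.29, ratio 0.843). For splicing and RNA binding genes, naive array 1 was low (6.34 against 6.46 to 6.48, ratio 0.851) and sham array 2 was high (6.53 against 6.43 to 6.44, ratio 0.912). Sham array 2 was low for progenitor genes (3.87 against 4.06 to 4.09, ratio 0.861). Naive array 3 was high for choroid plexus genes (6.88 against 2.48 to 3.09, ratio 0.861), and sham array 3 was high for meningeal genes (3.58 against 2.90 to 2.93, ratio 0.957).

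The sham minus naive difference at 12 months differed from that at 6 months, by the interaction test in limma, for 1924 probes. Among the largest differences of named genes, 12 months minus 6 months, were 3.12 ± 0.63 (SE, adjusted p = 0.00339) for Rps19l3, 3.09 ± 0.84 (adjusted p = 0.0259) for Caprin1, 2.99 ± 0.57 (adjusted p = 0.00234) for RT1-T24-4, −2.83 ± 0.55 (adjusted p = 0.00275) for Prrt2 and −2.82 ± 0.42 (adjusted p = 0.000323) for Tbr1. Caprin1, a cytoplasmic RNA-binding protein, read from 1.36 to 4.07 in naive and from 1.96 to 4.49 in sham at 12 months, so its groups overlapped there. A brighter probe of Prrt2, a presynaptic protein, gave 0.09 at 12 months, where the probe above gave −0.72.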

How the results depend on the processing

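The 786 called probes became 1124 with scaling to the 75th percentile, 949 with quantile normalization, 1202 with the authors' table, 545 of 20459 tested where all 8 sham and naive arrays had to be above background, 536 from the 8 sham and naive arrays alone, 526 from all 36 hippocampal arrays in 1 model, and 1884 at a fold of at least 1.4 with an unadjusted p under 0.05. Without a filter 14176 probes were called, 1357 higher and 12819 lower. Of alternatives chosen after seeing the data, scaling to detected probes gave 1287 and normexp on the median signal 2648, of which 2595 were higher (98.0%) and 53 lower. Those higher shares, 9.57% without a filter and 98.0% with normexp, stood against 78.8%. The median of all tested probes was −0.03, −0.21 without a filter and 0.12 with normexp. Leaving out 1 array gave 306 to 994. Of the genes described, 42 were called, 24 of the 24 still tested where all arrays had to be above background, 27 from 8 arrays, 24 from 36 arrays, and 18 to 36 without 1 array. With normexp, S100b turned to 0.0449 and Hspb1 to 0.0284, both uncalled. Drd2 was called under 2 and Il18 under 4 alternatives. Against cortex, 1 probe was called with the filter on all arrays, and 0 to 1 without 1 array; against 2 weeks, 0 to 1. Against 6 months the 1924 probes became 4832 with the 75th percentile, 4860 with quantile normalization, 4860 with the authors' table, 899 without a filter, 4960 with scaling to detected probes, and 1236 to 4483 without 1 array, with 15.1% to 61.2% of them higher. The cause was not tested. The 15 called list genes became 22, 14 and 19 with the 75th percentile, quantile normalization and the mean over probes.

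The replicate numbers did not pair the samples: same-numbered arrays had correlations from −0.05 to 0.31, and 1 of 4 exceeded 0.1. With the replicate number as a block, 681 probes were called in the main comparison, 1832 against 6 months and 32 of the genes described. Normexp on the mean signal was not run because the files used here hold the median signal, and slide as a random block was not run because each group lies on 1 slide. Signal over background limits the 1142 probes that were dim on all naive arrays to bounds.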

Other observations

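Genes that fell were shorter than the rest. The median gene length, from gene start to end in RefSeq (GRCr8), was 8.89 kb for the 98 genes called lower by their brightest probe, 24.0 kb for the 120 called higher and 21.9 kb for all 11469. The middle range was 3.97 to 24.1 kb among the genes called lower and 9.06 to 54.0 kb among all. Promoter GC content had a median of 58% in both called sets and 60.7% in all genes. These are descriptions of genes on the same arrays, with no test.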
